A study of Mus musculus with 4 samples.

Results

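Among the Lin-Sca-1+cKit+ (LSK) bone marrow cells collected after 5-fluorouracil (5-FU), 5386 of 9029 cells carrying a single hashtag held a UMI (unique molecular identifier, 1 counted RNA molecule) of at least 4 of 9 stem cell genes. The cells were chosen by these measured UMIs alone, of Mecom, Hlf, Procr, Mmrn1, Clec1a, Pdzk1ip1, Fgd5, Gng11 and Esam, so whatever sets the gate apart from other cells is a description and not a test. Of these cells, 2841 were wild type and 2545 were Sin3b knockout, and the other 3643 singlets are called the remaining cells. The gate was loose: it took in 53.6% of wild-type and 68.3% of knockout singlets, so the cells are named by the rule and not as purified stem cells.

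Hematopoietic stem cells sit at the top of blood formation. Most are quiescent and divide rarely, and the LSK fraction that contains them also holds multipotent progenitors, which cycle more. Mecom, Hlf and Meis1 are transcription factors of stem cells, and Procr, Esam and Clec1a encode surface proteins used to enrich them. 5-FU kills dividing progenitors, after which the surviving stem cells are called on to rebuild the marrow. Sin3b is a scaffold protein that brings histone deacetylases to promoters, among them promoters of cell cycle genes.

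The mice were C57BL/6. Knockout mice carried Sin3b F/F with Vav1-iCre, which deletes in hematopoietic cells from embryonic life onward. Wild-type mice are described by the study's methods as Sin3b F/F, and age was not given for these mice in the sources used here. The methods name male mice for homeostasis, and refer to that same workflow for the 5-FU mice without naming their sex again. Their general statement, for experiments without another one, is equal use of both sexes. Treated mice of both genotypes received 100 mg/kg 5-FU by intraperitoneal injection 9 days before harvest, and a library of untreated mice (homeostasis) was made separately. In each condition cells of 2 mice per genotype were pooled. Wild-type cells were stained with hashtag antibody B0096 and knockout cells with B0157, as the methods give it, before both were loaded together. Each genotype is therefore 1 pool per condition. No test between genotypes was possible, every interval below is a 95% interval for counting error only, and spread between mice is not known. Condition and library coincide, so the effect of 5-FU cannot be told apart from that of the library. The libraries shared 76 cell barcodes.

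Sin3b was checked first. In the gate it stood at 117 CPM (a gene's UMIs as a share of its pool's total, scaled to counts per 1e6) in wild-type cells and 15.5 CPM in knockout cells, a log2 ratio of -2.91 (-3.04 to -2.79). A UMI of Sin3b was found in 67.5% of wild-type and 20.4% of knockout gate cells. The tag calls left 3290 barcodes (25.8%) untagged, and 780 of those passed the gate. Their Sin3b level was 22.2 CPM (18.5 to 26.3), far nearer to the knockout than to the wild-type pool. Their median hashtag count was 141 for the knockout tag and 34 for the wild-type tag. In homeostasis cells passing the same rule (the homeostasis gate), Sin3b stood at 75.8 CPM in wild-type and 23.4 CPM in knockout cells. That ratio was -1.70 (-1.84 to -1.56), a smaller drop than after 5-FU. Mecom stood at 924 and 1170 CPM there, against 134 and 124 CPM after 5-FU, so like cells in both libraries cannot be assumed.

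Both the number of stem cell genes and the depth of a cell entered the gate. Gate cells had a median of 10497 UMIs in wild type and 11934 in knockout, against 7679 and 9862 in the remaining cells. The knockout share exceeded the wild-type share by 14.7 percentage points (12.7 to 16.7). With every cell thinned to 4000 UMIs, which left out 654 wild-type and 276 knockout cells, the shares were 21.3% (20.2 to 22.6) and 30.05% (28.5 to 31.6). The difference at equal depth was 8.71 points (6.78 to 10.6). At homeostasis and 4000 UMIs the same gate took in 23.4% of the wild-type pool and 34.2% of the knockout pool, 10.8 points apart (9.20 to 12.5).

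The direction of this difference depended on how untagged cells were counted. With other tag calls the knockout share stayed higher, by 11.3 points at hashtag quantile 0.95. It was higher by 6.63 points when a tag needed 80% of a cell's hashtag UMIs. When every untagged cell was counted as knockout, the share was lower in the knockout, with a difference of -6.20 points. When every untagged cell was counted as wild type, the difference was 26.1 points. Untagged cells were shallow, with a median of 4163 UMIs and 48.8% of them below 4000, and 23.7% of them passed the gate. They were counted with all UMIs and not at equal depth. Their part in the difference was not tested.

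The mode of the distribution was 4 genes in wild type and 5 in knockout cells. Just outside the gate, 887 wild-type and 469 knockout cells had a UMI of 3 genes, and just inside it 992 and 612 cells had a UMI of 4. Only 27 wild-type and 49 knockout cells had all 9.

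**Figure D1:**
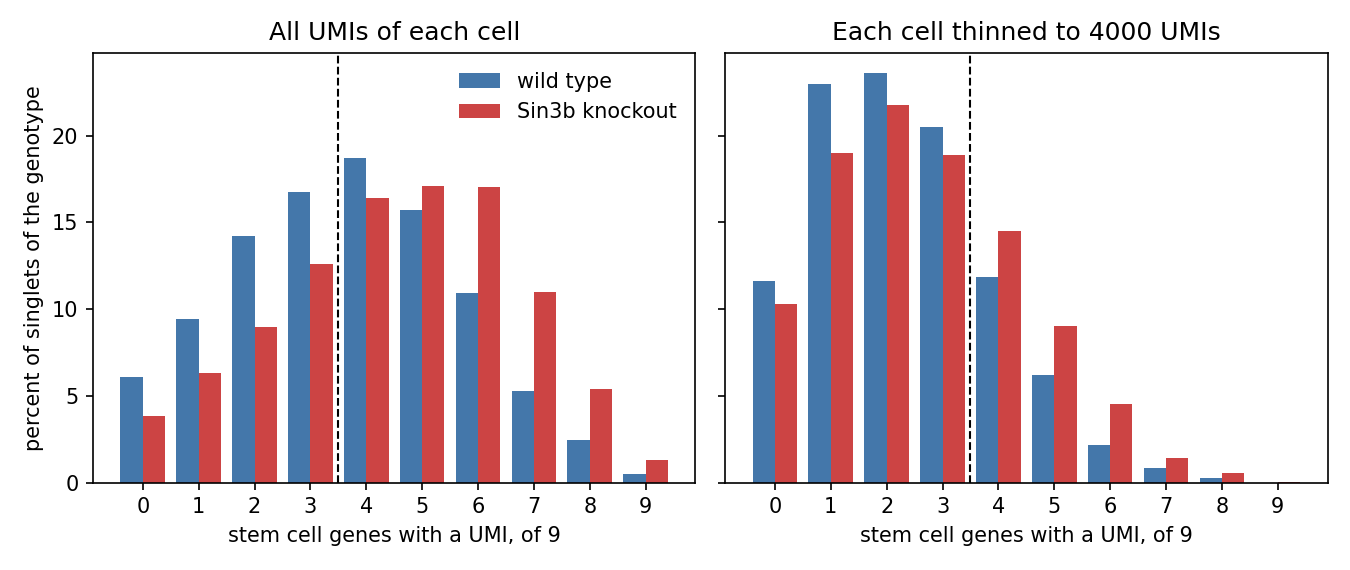
Percent of the singlets of each genotype (y axis) by how many of the 9 stem cell genes had a UMI (x axis), with all UMIs (left) and with each cell thinned to 4000 UMIs (right); the dashed line marks the gate. Knockout cells lie further to the right in both panels, and thinning brings the gate down to 21.3% of wild-type and 30.05% of knockout cells.

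Within the gate the 9 genes that chose it had ratios between genotypes from -0.34 to 0.56, which is a description since the gate used them. Hlf had the highest level, 561 CPM in wild-type and 443 CPM in knockout cells, and a UMI in 94.6% and 92.4% of the cells. It was also found in 68.2% of the remaining cells. Fgd5 and Clec1a were the rarest, with a UMI in 21.5% and 25.3% of wild-type gate cells. Clec1a, a C-type lectin, was higher in knockout gate cells by a log2 ratio of 0.56 (0.45 to 0.67). Mmrn1, a platelet and endothelial adhesion protein, was higher by 0.47 (0.39 to 0.55). Hlf was lower by 0.34 on the log2 scale. In cells matched by cluster (equal numbers of both genotypes drawn from each of 12 clusters of the gate) Clec1a stood at -0.08 and Mmrn1 at 0.06. Both genes could enter the clustering, so these matched ratios are a description and no test.

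Genes that the rule did not use varied with it. The summed level of 26 further stem cell genes, among them Slamf1, Mllt3 and Cavin2, was 645 CPM in wild-type cells with none of the 9 genes. It was 1355 CPM in those with 4 and 2122 CPM in those with 8. In knockout cells it went from 596 through 1308 to 2196 CPM. The 14 progenitor genes, among them Flt3, Cd48 and Mpo, were lower inside the gate, going from 6127 CPM in wild-type cells with none of the 9 genes to 2330 CPM with 4. In knockout cells they were at 3319 CPM with none, 6377 CPM with 1 and 1638 CPM with 4. The genotypes crossed: below the gate, knockout cells had less of the further stem cell genes than wild-type cells with as many of the 9 genes, and above it as much or more, except at 4 genes. These levels were measured in the cells the gate ranked, so they describe it and are no test of it.

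**Figure D2:**
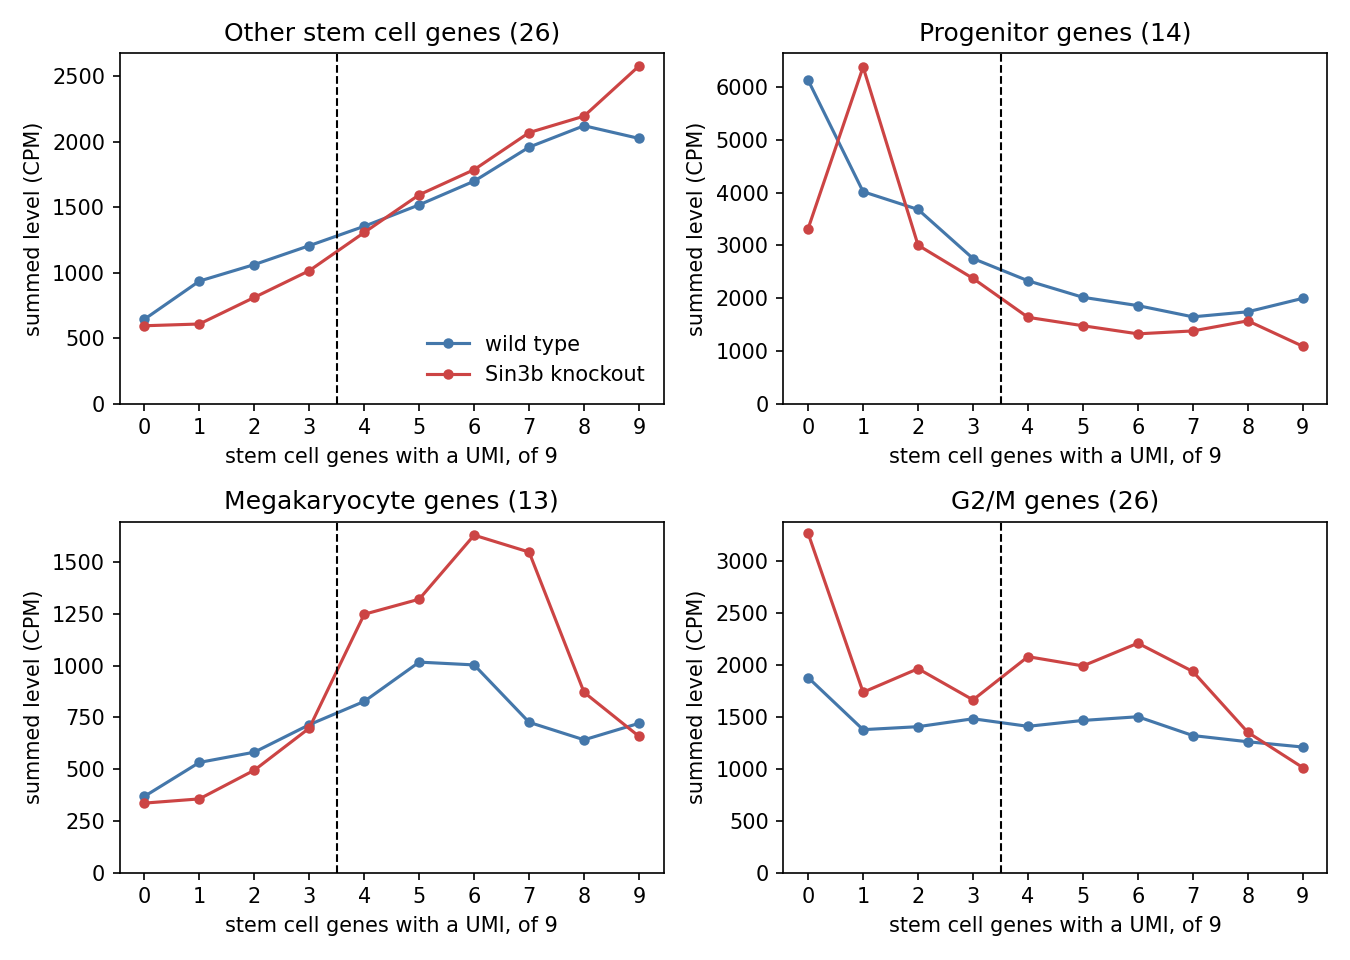
Summed level in CPM (y axes) of 4 gene lists in cells with each number of the 9 stem cell genes (x axes), by genotype; each point is 1 pool of cells and the dashed line marks the gate. The further stem cell genes climb in both genotypes up to 8 genes, the progenitor genes are lower inside the gate than outside it, and megakaryocyte genes peak in knockout cells with 6 genes at 1631 CPM.

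Against the remaining cells, 278 of 11755 genes (2.36%) stood at least 2-fold higher in gate cells and 125 (1.06%) at least 2-fold lower. In wild-type cells alone these counts were 97 and 72, and knockout cells made up a larger share of the gate than of the remaining cells. Apart from the gate genes, the highest were genes of few cells. Dnm3, a dynamin, was at 6.38 CPM in the gate and 0.42 CPM outside it. Cldn5, a tight junction protein, was at 6.43 and 0.52 CPM. Cyp26b1, Tm4sf1 and Amotl2 had log2 ratios of 3.70, 3.62 and 3.62 over the remaining cells, and Smtnl1 3.05. Inhba, Neo1, Wwtr1 and Hoxb8 were also among the 10, each with a UMI in 4.83% to 5.83% of gate cells and at most 0.63% of the remaining cells. The lowest were all genes of B or lymphoid cells: Igll1, Vpreb1, Vpreb3, Ebf1, Pax5, Rag1, Cd79a, Mzb1, Igkc and Lef1. These too were genes of few cells, each with a UMI in 0.38% to 4.25% of the remaining cells. Ebf1, the factor that commits cells to the B lineage, was at 3.08 CPM in the gate and 39.3 CPM outside.

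Cell cycle genes were compared with all UMIs and at equal depth, a setting that also left out shallow cells and made the gate stricter, so the part of depth alone was not tested. With all UMIs, 26 genes of G2/M phase had a median log2 ratio of 0.07 between gate and remaining cells and 11 canonical histone genes 0.06, while the 25 S phase genes had -0.35. With each cell thinned to 4000 UMIs and the gate applied again, the medians were -1.59, -1.64 and -1.47. In that setting 271 of 9927 genes (2.73%) were at least 2-fold lower in the gate and 190 (1.91%) at least 2-fold higher, and the lower ones included 24 of 26 G2/M genes and 19 of 25 S phase genes. The share of cells with at least 4 of 12 cycling genes was 24.4% in wild-type gate cells and 24.9% in the remaining wild-type cells with all UMIs. At 4000 UMIs it was 3.33% in the gate and 19.3% outside it. The same held for knockout cells, with 31.0% and 35.3% before thinning and 4.82% and 29.8% after it. Megakaryocyte genes likewise went from a median of 0.97 to -0.29.

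Knockout and wild-type gate cells were then compared gene by gene. The genotypes were spread unequally over the 12 clusters of the gate: cluster 1, led by Cyp26b1 and Cldn5, held 2.39% of wild-type and 16.0% of knockout gate cells, cluster 5, led by Slc16a11, 25.9% and 13.2%, and cluster 3 16.3% and 8.13%. Genes at least 2-fold apart between genotypes and sex-linked genes were left out when the clusters were made. The leading genes were ranked afterwards over all genes, so in clusters of unequal makeup they can reflect genotype. Smaller differences between genotypes stayed in the clustering, so these shares are no result of their own. For the same reason, ratios in matched cells are no test for genes less than 2-fold apart, or for lists of such genes. The ratios over the whole gate hold both makeup and level. Of 13117 genes with at least 50 UMIs over both pools, 152 (1.16%) were at least 2-fold higher and 189 (1.44%) at least 2-fold lower in knockout cells. The 95% counting interval lay above 0 for 23.3% and below 0 for 28.2% of them, and the median gene stood at -0.03. The counts of intervals given for gene lists below are to be read beside these shares. Of the 15 higher genes named by rule, S100a8, Lcn2 and Wfdc21 had 87.7% to 100% of their knockout UMIs in 10 cells. For Mt1 that share was 4.62%, and for Cyp26b1 24.6%.

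The metallothioneins Mt1 and Mt2, small proteins that bind zinc and copper, were among the higher genes named by rule. Mt1 was at 28.5 CPM in wild-type and 153 CPM in knockout gate cells, with a UMI in 18.3% and 58.2% of cells and a log2 ratio of 2.43 (2.33 to 2.52). Mt2 was at 2.04 and 28.7 CPM, a log2 ratio of 3.81 (3.47 to 4.18), with a UMI in 1.62% and 21.1% of cells. Neither was particular to the gate. In the remaining cells the Mt1 ratio was 2.04 and the Mt2 ratio 3.37, and in the homeostasis gate they were 1.96 and 2.53. Within the gate the Mt1 ratio was 2.30 in cells with 4 of the 9 genes, 2.41 with 5, 2.21 with 6 and 2.85 with at least 7. They belong to a list of 7 genes of metal handling, of which 6 were measured, with the interval above 0 for 4 and below 0 for 2. Mtf1, the metal-sensing factor that drives metallothionein genes, had a ratio of 0.62 (0.49 to 0.75). Slc30a1, a zinc exporter, had 0.73 (0.46 to 1.01). Slc39a10 and Slc39a14, zinc importers, had -0.54 (-0.67 to -0.41) and -0.30 (-0.56 to -0.05).

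Because both metallothionein genes were higher, the 250 bases before each start are shown. They come from RefSeq promoters of build GRCm38.p6, on the plus strand, at chr8:94178839-94179088 for Mt1 and chr8:94172368-94172617 for Mt2. Capitals mark the core of the metal response element, searched as TGCACNC or TGCGCNC on both strands. Within these 250 bases Mt1 held 1 match and Mt2 held 3. Bases past the annotated start or further before it were not searched, so these are not counts for the whole promoters. Of 32851 promoters of this length, 21.4% held at least 1 match and 1.26% at least 3. A match is a description and not a bound site.
Mt1: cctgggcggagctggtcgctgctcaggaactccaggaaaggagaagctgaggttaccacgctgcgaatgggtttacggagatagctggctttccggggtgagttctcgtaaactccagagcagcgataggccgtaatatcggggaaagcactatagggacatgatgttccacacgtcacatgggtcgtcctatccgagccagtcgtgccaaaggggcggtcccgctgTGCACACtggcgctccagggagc
Mt2: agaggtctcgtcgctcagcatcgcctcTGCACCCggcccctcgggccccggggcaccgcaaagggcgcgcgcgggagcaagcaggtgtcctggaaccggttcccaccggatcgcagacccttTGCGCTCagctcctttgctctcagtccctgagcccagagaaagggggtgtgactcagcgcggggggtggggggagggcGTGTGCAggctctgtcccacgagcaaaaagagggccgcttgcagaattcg

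The further higher genes given here were below Mt1 and Mt2 in CPM in the knockout pool. Cyp26b1, which degrades retinoic acid, was at 0.93 and 5.30 CPM, a ratio of 2.49 (1.97 to 3.08). In cells matched by cluster it was 0.74. Dnm3 was at 2.18 and 10.3 CPM, a ratio of 2.23 (1.88 to 2.61), and of 1.60 in matched cells. Eps8l1, an actin regulator, was at 4.64 and 17.8 CPM, a ratio of 1.94 that was 2.02 in matched cells. Wild-type gate cells held 2 UMIs of Gm35082 and knockout ones 192, and for Meiob, a meiosis gene, these were 1 and 54. In the remaining cells Gm35082 had 1 and 54 UMIs and Meiob 1 and 7. The homeostasis gate held 1 and 0 UMIs of Gm35082, too few for a ratio. Ndnf and Chst2 had ratios of 2.05 and 2.35 in the gate, and in cells matched by cluster of 1.55 and 0.95. The remaining cells held 12 and 9 UMIs of Ndnf and 8 and 3 of Chst2, whose intervals, -1.31 to 1.49 and -3.43 to 1.18, both span 0.

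Among genes lower in knockout gate cells, Slc16a11, a monocarboxylate transporter family member, was at 23.8 CPM in wild-type and 1.41 CPM in knockout cells, a ratio of -4.07 (-4.50 to -3.68). Tjp1, the tight junction scaffold ZO-1, was at 20.9 and 2.45 CPM, a ratio of -3.08 (-3.41 to -2.78). Of the 15 lower genes named by rule, Wfdc17 had the highest level, at 126 and 32.3 CPM, a ratio of -1.97 (-2.06 to -1.88). Il18r1, the receptor of interleukin 18, had 379 and 90 UMIs and a ratio of -2.18. Fcer1a, the receptor chain for IgE found on mast cells and basophils, was at 4.44 and 0.21 CPM, with 52.2% of the wild-type UMIs in 10 cells. Uchl1, Mpped2, Mmp2, Ncam1, Synpo2, Apob and Scube3 had ratios from -3.16 to -2.25. Slc16a11 and Tjp1 had ratios of -3.75 and -3.15 in the remaining cells and of -3.07 and -1.50 in the homeostasis gate. Within the gate, Slc16a11 lay between -4.69 and -3.57 and Tjp1 between -3.38 and -2.82 in cells with 4, 5, 6 and at least 7 of the 9 genes.

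**Figure D3:**
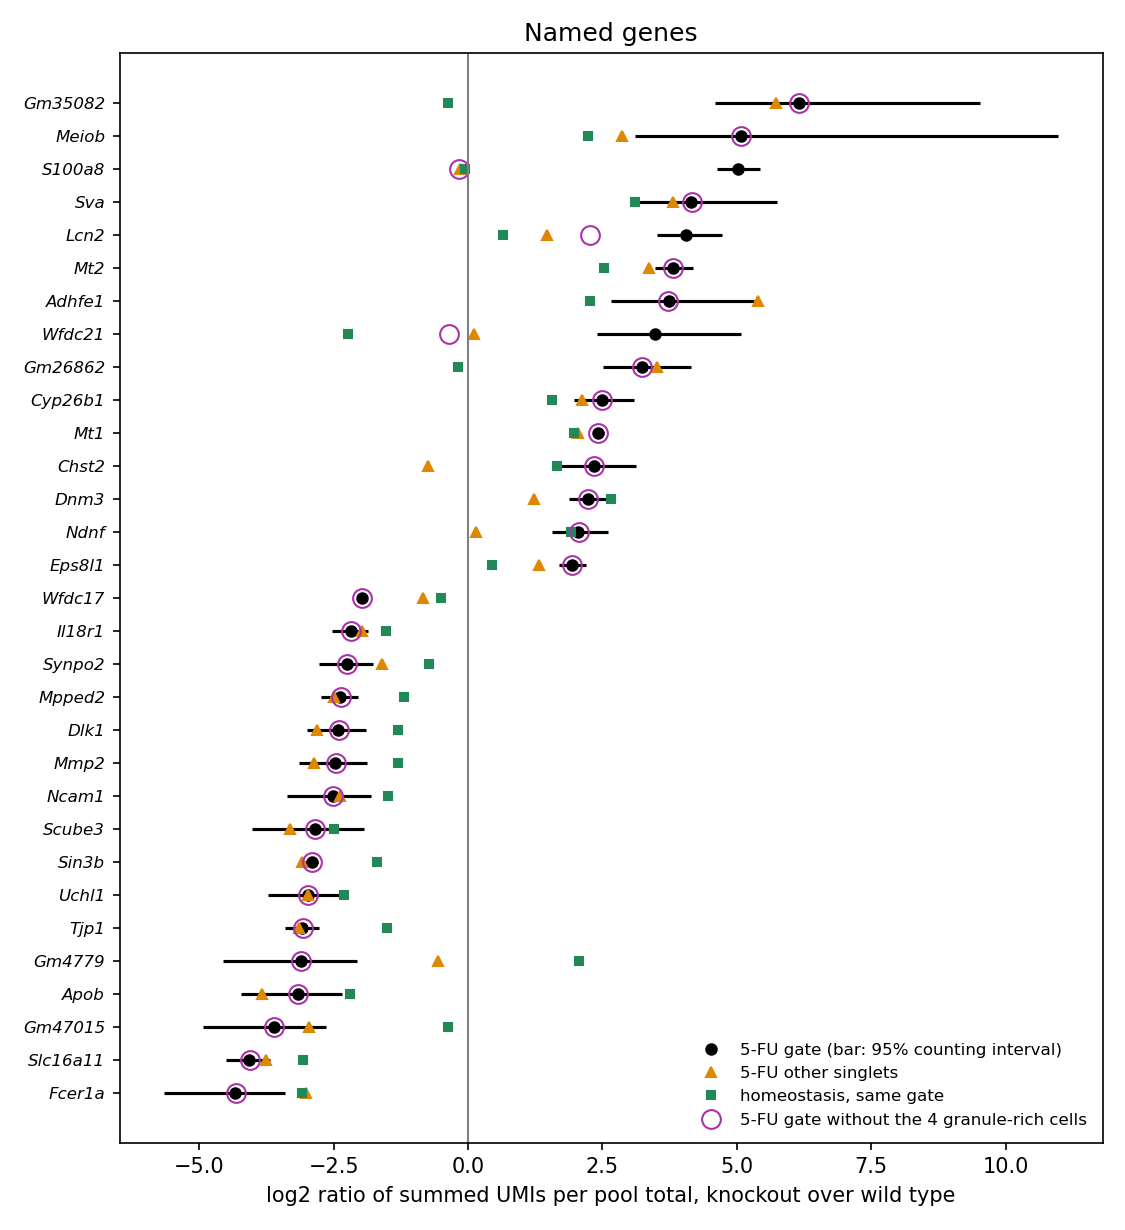
Log2 ratio of knockout over wild type (x axis) for Sin3b and the 30 genes named by rule (y axis); black points with bars are the 5-FU gate with 95% counting intervals, triangles the remaining cells, squares the homeostasis gate, and open circles the 5-FU gate without 4 granule-rich cells. S100a8 goes from 5.01 to -0.16 and Wfdc21 from 3.48 to -0.35 without those cells, while Mt1 and Slc16a11 stay in place.

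Neutrophil granule genes gave some of the largest ratios. Of Ngp the wild-type gate held 6 UMIs and the knockout gate 624, of S100a8 they held 55 and 1940, and of S100a9 57 and 2054. These were UMIs of very few cells. Over 10 granule genes the wild-type gate held 192 UMIs and the knockout gate 6394, and 95.4% of the latter lay in 4 knockout cells with at least 20 such UMIs. Those 4 cells had a median of 25335 UMIs. Any granule UMI was found in 5.67% of the wild-type gate and 7.03% of the knockout gate. Without the 4 cells the level was 7.62 CPM in knockout and 5.43 CPM in wild-type cells. The median ratio of 17 neutrophil and monocyte genes went from 0.84 to -0.55. Without the 4 cells 137 of 13105 genes stood at least 2-fold higher, 135 of them among the 152.

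The 14 progenitor genes were lower in knockout gate cells as a list. The interval lay below 0 for 13 of 14, and the list median was -0.51 against -0.03 for all genes. Satb1, a chromatin organizer of lymphoid priming, was at 52.5 and 20.2 CPM, a ratio of -1.38 (-1.50 to -1.26). Dntt, the lymphoid polymerase, was at 23.2 and 9.71 CPM, a ratio of -1.26. Flt3, the receptor that marks lymphoid-primed progenitors, was at 60.9 and 33.9 CPM, a ratio of -0.85 (-0.95 to -0.75). Cd34 and Cd48 each had a ratio of -0.49. The exception, Elane, a granule protease, had a ratio of 1.32 with UMIs in 1.83% and 1.93% of cells, and at 4000 UMIs its ratio was -2.10. The list median was -0.77 in the homeostasis gate and -0.10 in the remaining cells after 5-FU. At least 3 of 6 progenitor genes were found in 54.6% of wild-type and 36.9% of knockout gate cells, and at 4000 UMIs in 20.7% and 6.75%, which is -13.9 points (-16.9 to -11.0). In the remaining cells at 4000 UMIs they were found in 46.1% and 33.8%, which is -12.3 points (-14.8 to -9.81).

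Among stem cell genes outside the rule more were higher than lower in knockout gate cells. Of 25 measured, the interval lay above 0 for 15 and below 0 for 6, with a median of 0.25. Cavin2, a caveolar protein, was at 47.6 and 102 CPM, a ratio of 1.10. Ndn, an imprinted growth suppressor, had 1.08, and Rarb, a retinoic acid receptor, 1.28. Slamf1, which encodes CD150, was at 34.0 and 50.9 CPM, a ratio of 0.58 (0.48 to 0.69). Hoxb5 had 0.68 and Vwf, the platelet adhesion factor of platelet-biased stem cells, 0.78. In cells matched by cluster the median was 0.02. Ndn, which as a gene at least 2-fold apart was left out of the clustering, stood at 1.01 there. Meg3 went the other way, with 23.1 and 8.72 CPM and a ratio of -1.40 (-1.59 to -1.22). Its neighbours in the same imprinted domain, Rian and Dlk1, had ratios of -1.53 and -2.41, and at 4000 UMIs Dlk1 had -0.69 (-2.70 to 1.05). In the homeostasis gate Meg3, Rian and Dlk1 stood at -0.04, -0.26 and -1.30.

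Of 12 Hox genes and Hox cofactors the interval lay above 0 for 7 and below 0 for 2, with a median of 0.18. Hoxb8 was at 3.45 and 7.88 CPM, a ratio of 1.19 (0.88 to 1.51), Hoxb6 had 1.18 and Pbx3, a Hox cofactor, 0.78 (0.68 to 0.89). Hoxa9 and Meis1 each had -0.15. Socs2, a feedback inhibitor of cytokine signalling, was at 22.9 and 45.7 CPM, a ratio of 0.99 in the gate as a whole and 0.99 in cells matched by cluster. Among receptors, Il1r1 had -1.08 and Cxcr4, the receptor that holds stem cells in the marrow, -0.60. Of 24 niche and cytokine receptor genes the interval lay above 0 for 5 and below 0 for 15, with a median of -0.25. The Sin3 complex list, Sin3b included, had a median of -0.05, and Sin3a stood at -0.15.

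Immediate early genes were lower in knockout gate cells. The interval lay below 0 for 16 of 19 and the median was -0.47. Egr1 was at 315 CPM in wild-type and 162 CPM in knockout cells, a ratio of -0.96. Fos and Jun had ratios of -0.51 and -0.48, Fosb -0.64 and Zfp36 -0.65. Nr4a1 and Nr4a2 had 0.23 and 0.45. The median was -0.70 in the remaining cells and -0.26 in the homeostasis gate. At 4000 UMIs, at least 4 of 9 early response genes were found in 56.5% of wild-type and 39.9% of knockout gate cells, and in 41.6% and 30.4% of the remaining cells. These genes also respond to tissue handling, whose part was not tested. Of 10 measured genes of dissociation stress the interval lay above 0 for 4 and below 0 for 3. Over all genes it lay above 0 for 23.3% and below 0 for 28.2%.

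Megakaryocyte genes were higher in knockout gate cells with all UMIs. The interval lay above 0 for 10 of 13 and the median was 0.56. Pf4, platelet factor 4, was at 250 and 576 CPM, a ratio of 1.21 (1.17 to 1.24), and Gp9 at 34.9 and 65.3 CPM, a ratio of 0.90. The median was 0.23 at 4000 UMIs and 0.18 in cells matched by cluster, where Pf4 had 0.38. At least 2 of 6 megakaryocyte genes were found in 28.7% of wild-type and 44.3% of knockout gate cells with all UMIs. At 4000 UMIs they were found in 7.66% and 11.9%. The higher knockout share was not particular to the gate. In the remaining cells the shares were 17.8% and 24.9% with all UMIs. At 4000 UMIs they were 11.6% and 20.05%, which is 8.45 points (6.56 to 10.4). The list median in the remaining cells went the other way, at -0.19 with all UMIs. The interval there lay above 0 for 2 of 13 genes and below 0 for 6.

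Ratios of cell cycle genes differed between depth settings. The interval lay above 0 for 24 of 25 S phase genes, for 26 of 26 G2/M genes and for 11 of 11 canonical histone genes, with medians of 0.37, 0.51 and 0.47. Cells of 20000 or more UMIs made up 12.7% of wild-type and 23.1% of knockout gate cells. Without them the medians were 0.00, -0.23 and -0.09. That setting also left out cycling cells: cluster 8, led by histone genes, had a median of 25349 UMIs. In cells matched by cluster the medians were 0.09, 0.14 and -0.18, and at 4000 UMIs they were -0.09, 0.51 and 0.28. In the homeostasis gate they were -0.23, -0.53 and -0.32. The part of depth and of cell composition in the higher cell cycle genes was not tested beyond these settings. At 4000 UMIs the cycling share was 3.33% in wild-type and 4.82% in knockout gate cells, 1.49 points apart (-0.24 to 3.25).

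**Figure D4:**
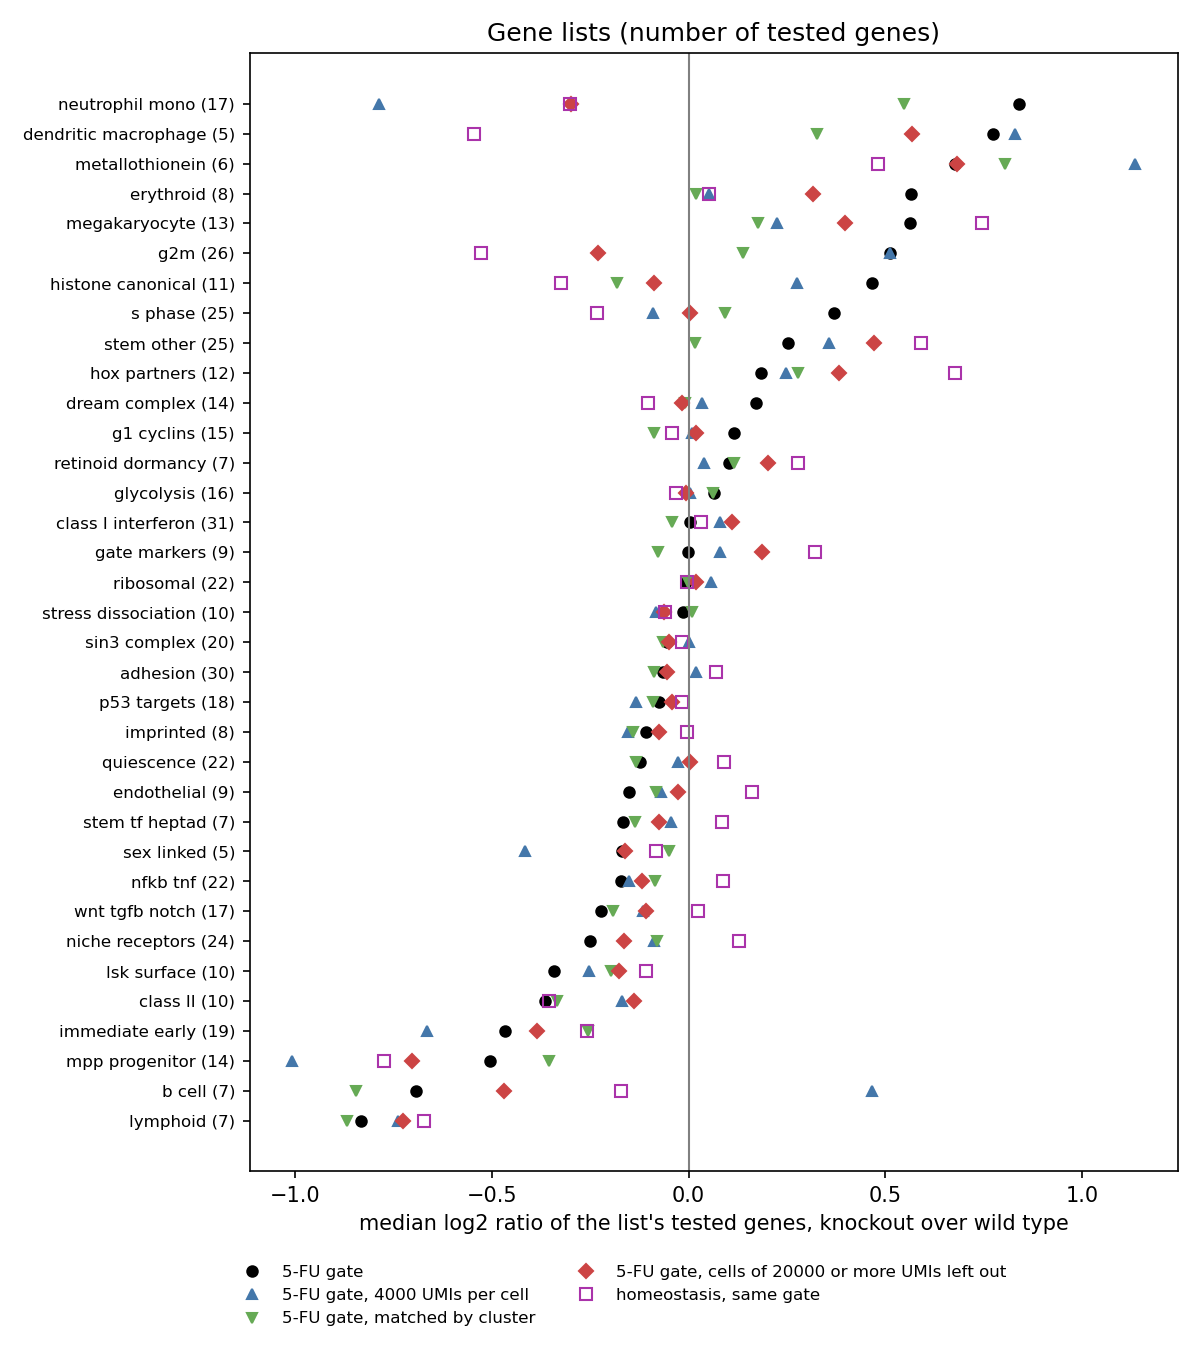
Median log2 ratio of knockout over wild type (x axis) of each gene list with at least 5 measured genes (y axis, number in brackets) in the 5-FU gate and under 3 other settings, and in the homeostasis gate. The progenitor, lymphoid and immediate early lists lie below 0 in every setting, while the G2/M, histone and neutrophil lists cross 0.

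A small group of gate cells carried Cldn5 and its companions. At least 2 of Cldn5, Cyp26b1, Cxcl10, Gkn3 and Ramp2 were found in 9 wild-type gate cells (0.32%) and 82 knockout gate cells (3.22%), 2.91 points apart (2.22 to 3.68). At 4000 UMIs the shares were 0.30% and 4.05%. Among the remaining cells these were 0 of 2461 in the wild type and 2 of 1182 in the knockout, and 0 of 2461 allows a share of up to 0.12% when 3 counts are taken as the limit (exact binomial upper bound 0.15%). These knockout cells had a median of 8178 UMIs, and 84.1% of them had at least 6 of the 9 stem cell genes. Of the 9 wild-type cells 88.9% did, and of all 2545 knockout gate cells 1295 did. Over all gate cells Cldn5 itself was at 3.42 and 9.22 CPM, and at 3.33 and 8.52 CPM in the homeostasis gate. In cells matched by cluster its ratio was -0.10. The endothelial list was compared between genotypes over all gate cells and not within this small group, so it does not describe the group. Cldn5 included, the list had 9 measured genes, with the interval above 0 for 2 and below 0 for 3 and a median of -0.15. Over all genes 23.3% lay above 0 and 28.2% below 0. In the whole gate Plvap had a ratio of 0.84 (0.40 to 1.29) and Pecam1 a ratio of -0.40. Cdh5, the defining cadherin of endothelium, had 2 and 3 UMIs there, and Lyve1 had 0 and 1.

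Among class II antigen presentation genes, H2-Ab1 had a UMI in 42.4% of wild-type and 43.9% of knockout gate cells, and H2-Aa in 16.3% and 16.2%. At least 3 of H2-Aa, H2-Ab1, H2-Eb1 and Cd74 were detected in 9.64% of wild-type and 9.31% of knockout gate cells, which is -0.33 points (-1.90 to 1.24). At 4000 UMIs the shares were 5.54% and 7.62%, or 2.07 points apart (-0.10 to 4.25). In cells matched by cluster H2-Aa, H2-Eb1 and Cd74 had ratios of -1.08, -1.22 and -1.13, whereas at 4000 UMIs Cd74 had 0.66 (0.44 to 0.88) and H2-Ab1 0.27 (0.01 to 0.52). Cluster 2, led by class II genes, held 6.90% of wild-type and 14.4% of knockout gate cells, while cluster 3, which also has H2-Eb1 among its leading genes, held more of the wild type, as given above. The list of 10 class II genes had a median of -0.36, with the interval below 0 for 9. Of 31 interferon and class I genes the interval lay above 0 for 10 and below 0 for 6, with a median of 0.00, beside 23.3% above and 28.2% below over all genes. Of 22 NF-kB and TNF genes it lay above 0 for 3 and below 0 for 12, with a median of -0.17.

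**Figure D5:**
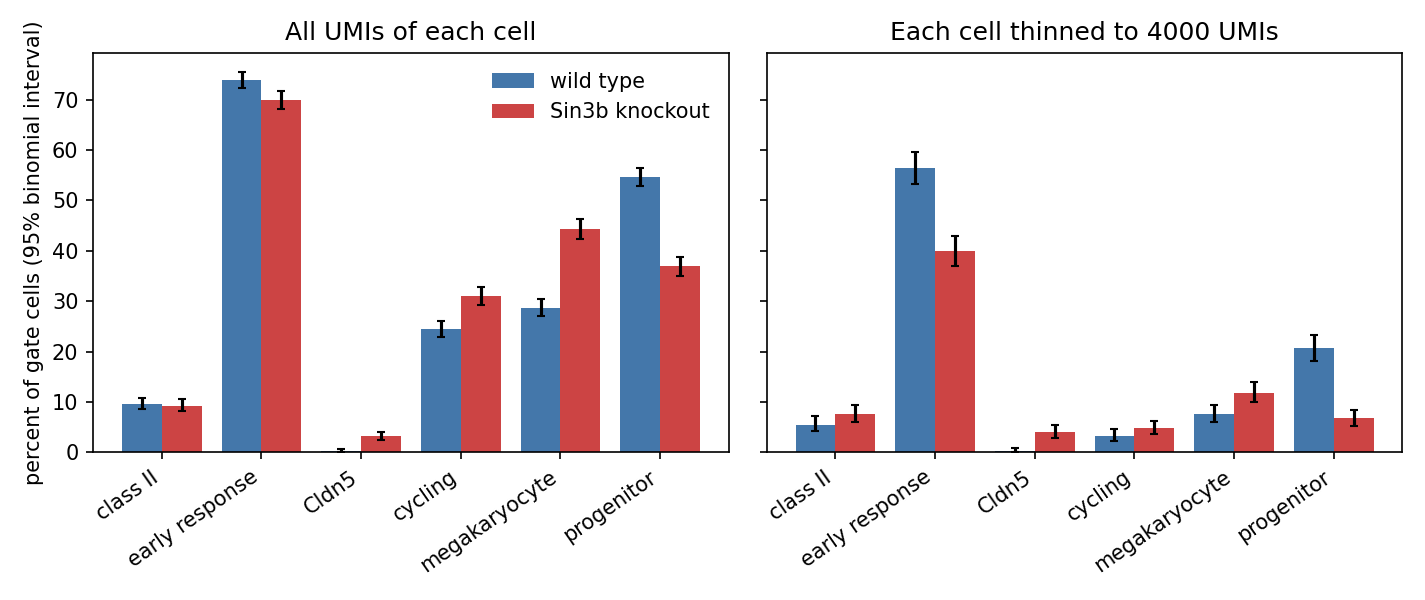
Percent of gate cells (y axis) that passed each of 6 overlapping gates (x axis), by genotype, with 95% binomial intervals, with all UMIs (left) and with each cell thinned to 4000 UMIs (right). The progenitor share is lower in knockout cells in both panels, 36.9% against 54.6% and 6.75% against 20.7%.

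Lists of other cell types were summed in both pools. Stromal Cxcl12 had 0 and 1 UMIs in wild-type and knockout gate cells, and Cd3e had 0 in both. The B cell list was at 45.4 and 34.8 CPM, the macrophage and dendritic list at 5.54 and 6.14 CPM, and the erythroid list at 776 and 783 CPM, most of it from Car2. Of its 8 measured genes the interval lay above 0 for 6 and below 0 for 1, with a median of 0.57, which was 0.05 at 4000 UMIs and 0.02 in cells matched by cluster. Over both genotypes the erythroid list was at 780 CPM in the gate and 640 CPM in the remaining cells, and the B cell list at 39.9 and 203 CPM. Hemoglobin gene Hbb-bt was at 63.8 and 100 CPM. Their part in the ratios above was not tested.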

How the data were processed

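The authors deposited raw UMI counts per gene and barcode from 10x droplet libraries, made with Cell Ranger; the submitters' processing notes also name Seurat, DESeq2 and build mm9. The homeostasis matrix was not filtered for cells. A barcode counted as a cell there from 2921 UMIs (10% of the 99th percentile over the 10000 deepest barcodes), and its gene names were taken from the other matrix after the row order was checked. Hashtags were called with HTODemux (Seurat 5.3.0, quantile 0.99), and doublets within a genotype remain, since no doublet caller was run. Of the 434 barcodes called as doublets by hashtag, 85.0% passed the gate, and those had a median of 23632 UMIs. The part of remaining doublets in the gate and its deep cells was not tested. The gate pools held 35365711 (wild type) and 38302411 (knockout) UMIs.

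UMIs were summed per pool. Ratios are log2 of sums over pool totals with 0.5 UMIs added, with exact conditional binomial intervals; shares have exact binomial intervals and share differences Newcombe intervals, all for counting error only. Genes needed 50 UMIs over both pools, or 200 against the remaining cells. Thinning drew 4000 UMIs per cell. Clusters were made with scanpy 1.11.5, without sex-linked genes and genes at least 2-fold apart between genotypes. TMM factors were made with edgeR 4.0.16. The ratio and its interval were run only on simulated independent counts. These leave out the clumping of UMIs in single cells, so coverage in these data was not tested.

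The cells and gene lists were chosen with earlier results of these data known. Genes were named by rule: Sin3b, the gate genes, list members, and the 15 with the highest lower bound and the 15 with the lowest upper bound whose direction held when thinned, under a stricter tag rule and in cells matched by cluster; against the remaining cells, 10 each way. The granule genes were singled out after their values were seen. Hoxb6, Hoxb8 and the other list members named in the text were picked from the lists by their values.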

Additional observations from a re-analysis of the deposited data

Results flagged for a closer look

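Between the 5-FU gate and the homeostasis gate, 5 lists had median ratios of knockout over wild type in opposite directions and at least 0.25 from 0 in both. Others, such as the S phase list (0.37 and -0.23), differed in sign with a smaller median on at least 1 side. The G2/M list stood at 0.51 after 5-FU and -0.53 at homeostasis. The canonical histone list stood at 0.47 and -0.32, and the neutrophil and monocyte list at 0.84 and -0.30. The macrophage and dendritic list stood at 0.77 and -0.55, with 5 genes measured after 5-FU, and the stromal list at -0.51 and 0.61, with 2. For 3 of the lists the sign after 5-FU differed between settings. Without cells of 20000 or more UMIs, which also left out cycling cells, the G2/M, histone and neutrophil medians were -0.23, -0.089 and -0.30. With every cell thinned to equal depth they were 0.51, 0.28 and -0.79. In cells matched by cluster they were 0.14, -0.18 and 0.55. Without the 4 granule-rich cells the neutrophil median was -0.55. The difference between conditions was not tested, and condition and library coincide.

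The 780 untagged barcodes that passed the gate entered the comparisons between genotypes only in the alternatives that gave them a genotype. They held stem cell gene signal with a Sin3b level of 22.2 CPM.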

How the results depend on the processing

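The difference in gate share (14.7 points) was 10.6 with 3 and 17.0 with 5 of 9 genes as the minimum, 8.71 at 4000 UMIs, 6.63 with the 80% tag rule, 11.3 at hashtag quantile 0.95, 16.7 without Mecom and 18.3 without Hlf. Counting untagged cells as knockout turned it to -6.20, and as wild type gave 26.1; these 2 settings and those on deep or granule-rich cells or on wild-type cells alone were added after seeing the data. Genes at least 2-fold higher in knockout cells (152 of 13117) numbered 86 of 10062 at 4000 UMIs and 82 of 12643 in cells matched by cluster. With minimums of 1, 20 and 200 UMIs they numbered 1853 of 20162, 245 of 14477 and 65 of 11204. Of the 86, 32 were among the 152, and of the 82, 62. Genes of the 152 with fewer than 50 UMIs at 4000 UMIs per cell or in matched cells could not be counted there. Genes at least 2-fold lower (189) numbered 84 at 4000 UMIs, 26 of them among the 189. They numbered 2056, 374 and 69 with those minimums, out of the same numbers of genes. Against the remaining cells, genes at least 2-fold lower (125) numbered 271 at 4000 UMIs and 72 in wild-type cells alone, and genes at least 2-fold higher (278) numbered 97 in wild-type cells alone. Without granule-rich cells S100a8 turned to -0.16, Wfdc21 to -0.35 and the neutrophil and monocyte median to -0.55; that median was -0.79 at 4000 UMIs and -0.30 without cells of 20000 or more UMIs. At 4000 UMIs the B cell median turned to 0.47 and the S phase median to -0.091. The B cell value rested on few UMIs and gives no direction: no wild-type gate cell had one of Igll1, Vpreb3, Ebf1 or Pax5 there. The ratio of Vpreb1 at that depth was 0.47 (-1.56 to 2.79). Without cells of 20000 or more UMIs the G2/M median turned to -0.23 and the histone median to -0.089, which was -0.18 in cells matched by cluster. Apart from filters and fewer cells, the cause was not tested. No paired analysis was possible because each genotype is 1 pool per library. With 1 pool of 2 mice, no value here carries the spread between mice.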
